A study of Mus musculus with 18 samples.

Results

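Embryoid bodies that lacked Quaking were compared with unedited (WT) embryoid bodies at day 10 of differentiation, by counting ribosome-protected fragments per gene. Both groups were treated with cycloheximide, which stops ribosomes, at 100 ug/mL for 15 min. The comparison rests on 6 of the 18 libraries of the series, chosen by their titles: 3 Quaking KO libraries, which carry the name MIX_3 in their labels, and 3 WT libraries, which carry MIX_2. These names are taken here as library pools, though the labels do not say what they are. All come from E14, a mouse embryonic stem cell line, and the knockout has the same genetic background. Embryoid bodies are aggregates in which stem cells leave the pluripotent state and form early embryonic cell types. The labels say nothing of how the knockout was made or how many clones it represents, and they describe the 3 libraries of a group as biological replicates. The other libraries are WT and Quaking KO stem cells at day 0 (pool MIX_1) and cells without Sam68, another RNA-binding protein of the same family as Quaking, at day 0 (MIX_2) and day 10 (MIX_3). Because pool and genotype differ together in the day 10 comparison with WT, their effects cannot be told apart there.

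Quaking is an RNA-binding protein of the STAR family, which binds specific RNA motifs and takes part in splicing, stability, export and translation of its target mRNAs. It is best known for its role in myelin-forming glia, and it also acts in blood vessel and smooth muscle development. Ribosome footprints, the fragments of mRNA that a ribosome shields from nuclease, reflect mRNA abundance together with ribosome loading, which cannot be separated without matched RNA libraries. In bulk samples, fewer cells of a type and less RNA per cell cannot be told apart either.

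The question of which lineages gained or lost footprints could not be answered by name. The count tables identify features by Ensembl ID without gene symbols. The Ensembl column of the reference gene table used here is empty, so 0 of the 51826 IDs could be matched. The limit lies in that reference and not in the IDs. For the same reason the footprints of the Quaking gene itself and the markers of embryoid body cell types were not examined, so the genotype and the tissue rest on the labels, and no sequence is printed. The genes are therefore described in groups that can be formed from IDs: by their level in the day 0 libraries, by their change in Sam68 KO cells between the days, and by cell-cycle phase.

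The 3 WT libraries held 1175919 to 6513343 counts and the 3 Quaking KO libraries 988210 to 3281358. WT replicate 3 stood apart from its group: its 10 largest features took 70.4% of its counts, against 29.9% and 30.2% in WT replicates 1 and 2 and 24.6% to 30% in Quaking KO. That left it the coarsest of the 6, with 3 counts worth 7.05 CPM (counts relative to the TMM-scaled library size), against 0.450 to 2.78 CPM in the others. On log2(CPM + 2), Quaking KO libraries correlated with each other across genes at r = 0.927 to 0.963 and with WT libraries at 0.791 to 0.913, while WT libraries correlated with each other at 0.874 to 0.980, the lower values being those of WT replicate 3. Genes are not independent replicates, so these values are a description.

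**Figure D1:**
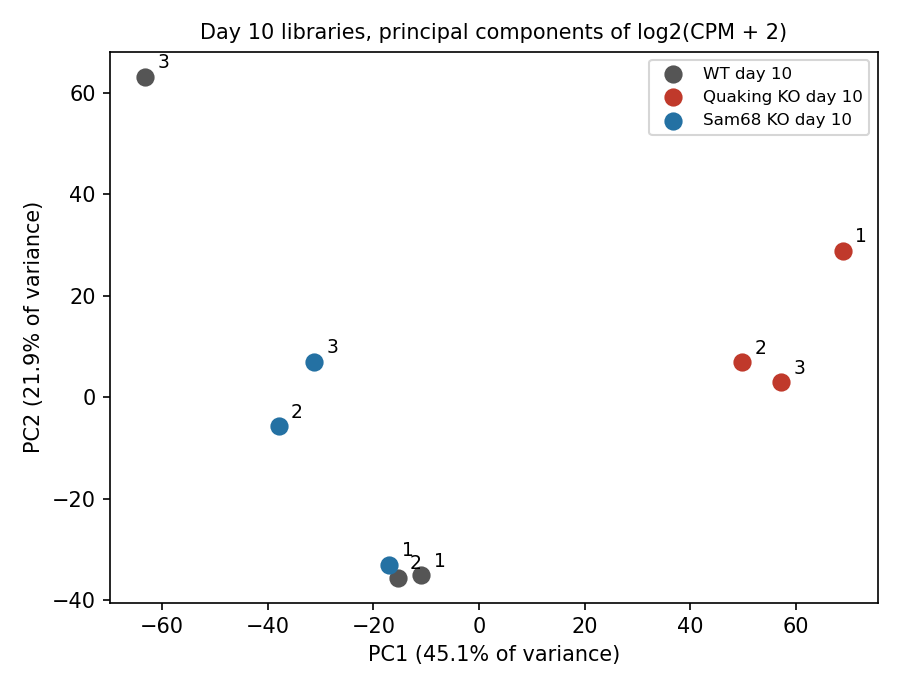
First and second principal components of log2(CPM + 2) in the 9 day 10 libraries, one point per library with its replicate number, coloured by group. The 3 Quaking KO libraries lie at 49.8 to 68.9 on the first component (45.1% of the variance), and every WT and Sam68 KO library lies below 0. WT replicate 3 lies apart on the first component too, at -63.2 against -11.0 and -15.4 for WT replicates 1 and 2, and on the second (21.9%). Sam68 KO replicates 1, 2 and 3 lie at -17.05, -37.98 and -31.25 on the first component, which thus also separates libraries within a group.

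Footprints of many genes differed between Quaking KO and WT embryoid bodies, in both directions. Of 13701 genes tested, 23.9% were called (edgeR's quasi-likelihood test, two-sided, Benjamini-Hochberg adjusted p below 0.05), 11.1% as higher and 12.8% as lower in Quaking KO. Among the 1523 higher genes 966 differed by at least 2-fold, 405 by at least 4-fold and 137 by at least 8-fold. Among the 1756 lower genes these numbers were 1091, 460 and 125. The median size of a called difference was 1.30 (log2) for higher and 1.24 for lower genes, and the median level in the higher group was 37.9 and 40.9 CPM. The calls were mostly separated library by library: for 1360 genes called higher and 1471 called lower, the 3 libraries of one group all lay beyond the 3 of the other, where 31.2% of all genes tested had no such overlap. The calls were made on the same libraries, so this separation is a description only. Few called genes lacked every count in 1 group: 10 higher genes had no count in any WT library and 19 lower genes had none in any Quaking KO library. The groups differed in depth, which affects how often a gene has no count, and such genes were not counted over all genes tested.

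**Figure D2:**
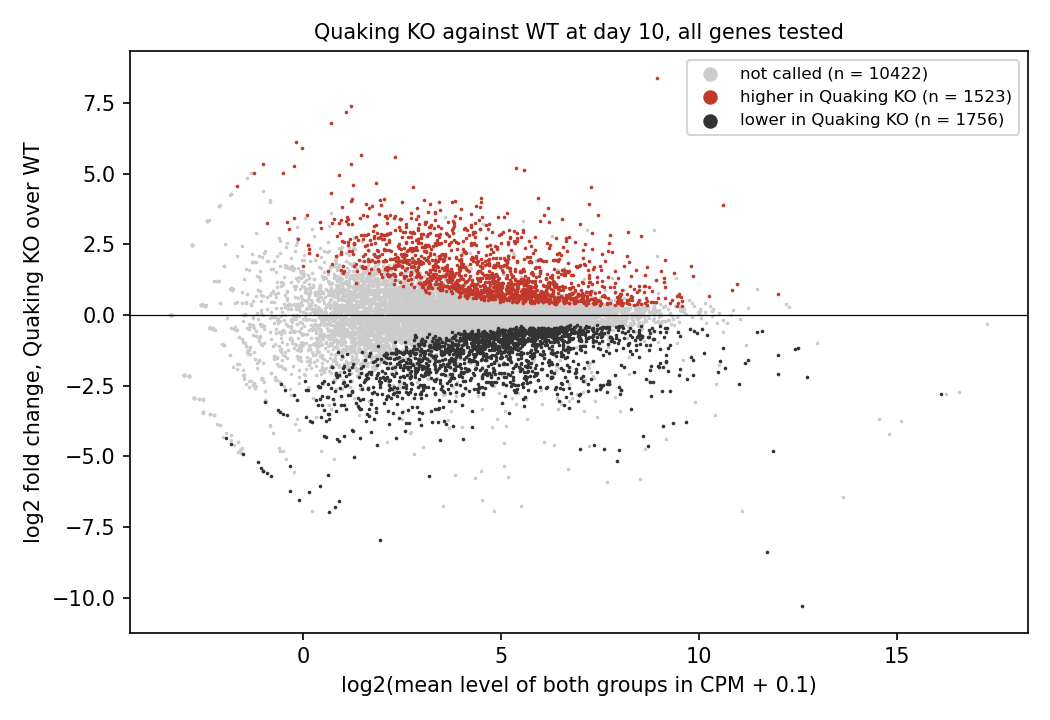
Log2 fold change of Quaking KO over WT at day 10 against the log2 mean level of both groups in CPM (plus 0.1), one point per gene tested. Called genes (1523 higher in red, 1756 lower in dark grey) spread on both sides of 0 over the whole range of levels.

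The calls rested on more than the library that stands apart, but their number moved with the fit. Leaving out WT replicate 3 gave 1534 higher and 1918 lower genes, and leaving out any 1 of the 6 libraries gave 1032 to 1534 higher and 1361 to 1918 lower. There were 793 higher and 955 lower genes that kept call and direction in all 6 of those fits. With only the 6 libraries compared in the fit, in place of all 18, the calls numbered 965 higher and 922 lower. The share of higher genes among the calls was 46.4%, and 54.6% with RLE scaling, so which direction had more calls depended on the scaling.

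The genes called higher and lower took up unequal parts of the libraries. The genes called lower held 31.9%, 33.8% and 17.7% of the counts in WT replicates 1, 2 and 3, and 12%, 12.3% and 14.1% in Quaking KO replicates 1, 2 and 3. The genes called higher held 7.29%, 7.0% and 2.23% in WT and 15.7%, 15.6% and 15.7% in Quaking KO. In both cases the groups did not overlap, but the genes were chosen on these libraries, and the shares are a description only. Without the 10 largest features among them, the genes called lower held 18.4%, 18.4% and 8.21% in WT and 7.83%, 9.18% and 8.83% in Quaking KO, and the groups overlapped at WT replicate 3. WT replicate 3 was lowest of the WT libraries in both shares, and genes not called held 79.8% of its counts against 58.8% to 71.8% in the other 5.

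Among genes that had risen with differentiation in another line, a larger share was called than among all genes tested. Differentiation was read from Sam68 KO cells, day 10 against day 0, since that course shares no library with the comparison, and 65.3% of the genes were called in it. It does run from MIX_2 to MIX_3, the same pools as WT and Quaking KO at day 10, and the part of the pools in what follows was not tested. Of the 1348 genes that rose at least 8-fold there, 324 were higher and 317 lower in Quaking KO than in WT embryoid bodies, or 47.6% called. Of the 1006 among them that pass the filter on low counts in the 12 libraries outside the comparison, 225 were higher and 290 lower (51.2% called). Of the 2425 that rose 2- to 8-fold, 297 were higher and 499 lower (32.8% called), and of the 2216 that pass in the 12 libraries, 264 and 494 (34.2%). Over all 12850 tested genes that pass in the 12 libraries, 23.5% were called. Of the 7180 genes with no call or a change under 2-fold, 631 were higher and 706 lower (18.6%). Among genes that fell in Sam68 KO cells, 18.1% of the 2298 that fell 2- to 8-fold and 19.6% of the 450 that fell at least 8-fold were called. The latter held 53 higher genes, and 31 without WT replicate 1 or 33 without WT replicate 2.

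The classes differ in level, which affects how easily a gene is called. Within the band of 10 to 100 CPM over the 6 libraries, 58.2% of 641 genes that rose at least 8-fold and 34.6% of 1450 that rose 2- to 8-fold were called, against 19.2% of 4196 with no or a small change and 25.3% of all 7630 genes in the band. The genes that fell at least 8-fold had a median level of 0.852 CPM, and only 56 of them lay in the band, of which 42.9% were called.

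The strongly rising genes spread widely, with quartiles of the log2 fold change at -1.45 and 1.11, against -0.50 and 0.39 over all genes tested. Called differences of at least 2-fold numbered 284 higher and 289 lower in Quaking KO. The balance of the class depended on the filter: the median was 0.02 over the 1348 tested and -0.23 over the 1006 that pass in the 12 other libraries, where the medians over all genes were -0.03 and -0.05. A gene can pass the filter through the group in which it is high, so no direction is given for this class. The moderately rising genes had more lower than higher calls, with a median of -0.11 (-0.03 with RLE scaling, where the median of all genes was 0.04) and 324 called at least 2-fold lower against 194 at least 2-fold higher. Summed over all 2425 of these, the level was 153625, 151460 and 146038 CPM in WT replicates 1, 2 and 3 and 127630, 121326 and 128550 CPM in Quaking KO replicates 1, 2 and 3. All 3 Quaking KO libraries lay below all 3 WT libraries with TMM, RLE and upper quartile scaling alike. As a share of the counts of tested genes, WT held 15.8%, 15.5% and 5.30%, and Quaking KO 14.0%, 14.4% and 14.6%. The order at WT replicate 3 thus rests on the scaling. The class was set by a rise in Sam68 KO cells, whose day 10 libraries differed from WT in 24 genes and from Quaking KO in 3242. A gene that rises only in Quaking KO cannot enter it, so no direction is given for this class either.

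**Figure D3:**
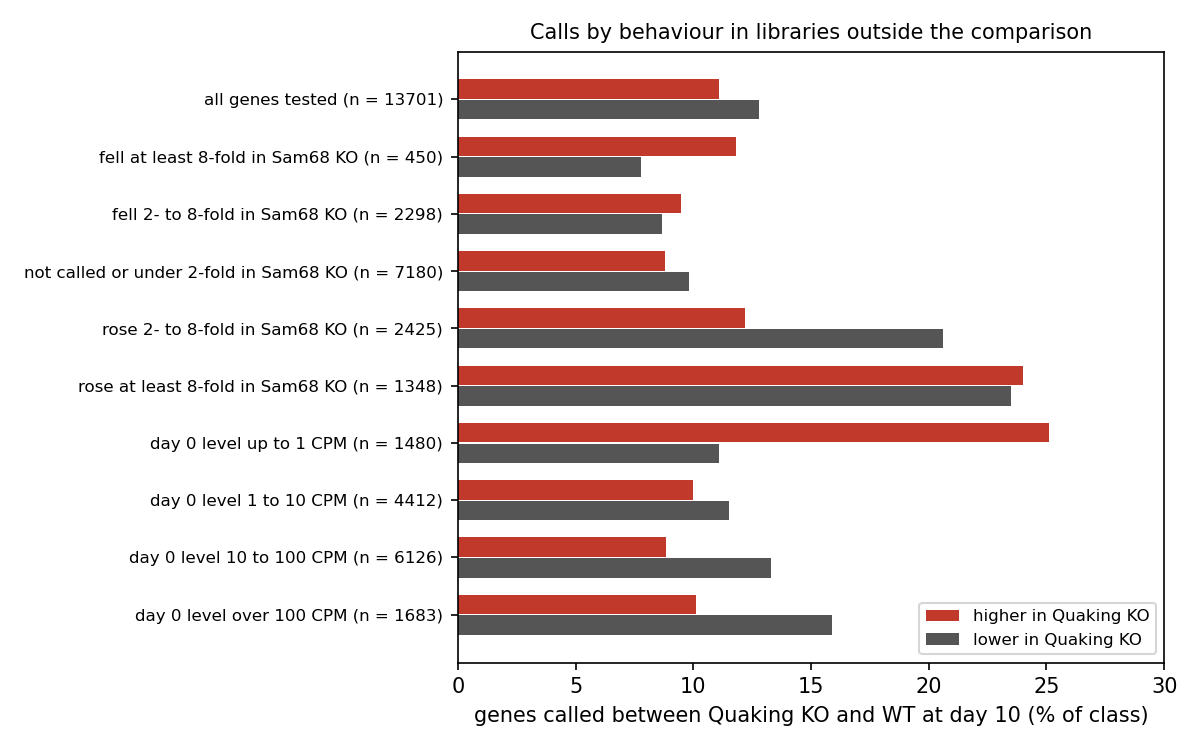
Percent of each gene class called higher (red) or lower (grey) in Quaking KO than in WT at day 10, with classes set by the change in Sam68 KO cells between the days or by the level at day 0. Genes that rose at least 8-fold in Sam68 KO have 24.0% called higher and 23.5% lower, and genes up to 1 CPM at day 0 have 25.1% higher and 11.1% lower, against 11.1% and 12.8% of all genes tested. These shares depend on the filter: of the members that pass it in the 12 other libraries, 225 were higher and 290 lower of 1006 in the first class, and 160 and 130 of 693 in the second. Of all 12850 tested genes that pass there, 1303 were higher and 1719 lower.

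Genes nearly silent in stem cells were called higher more often than lower in Quaking KO embryoid bodies. The size of that lean depended on the filter on low counts. Levels at day 0 were the mean of the 6 WT and Quaking KO stem cell libraries, which are not part of the comparison. Of 20476 features with up to 1 CPM there, 1480 passed the filter and 18996 did not. Of the 1480, 371 were higher and 165 lower, with a median log2 fold change of 0.46. A gene silent elsewhere passes the filter through the group in which it is high, so this count does not support a direction. Of the 693 that pass the filter in the 12 libraries outside the comparison, 160 were higher and 130 lower (41.8% called), with a median of 0.15. Over all 12850 tested genes that pass there, 1303 were higher and 1719 lower (23.5% called), with a median of -0.05. The only day 10 libraries among the 12 are Sam68 KO, which differed from WT in 24 genes. That subset can therefore miss genes that are high only in Quaking KO, and it does not settle a direction either. Summed over all 20476 features, tested or not, the level was 27363, 27906 and 32260 CPM in WT replicates 1, 2 and 3 and 34380, 34115 and 34953 CPM in Quaking KO replicates 1, 2 and 3. The Quaking KO libraries were higher than all WT libraries, with WT replicate 3 nearest to them, and this order also held with RLE and upper quartile scaling.

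Genes already translated in stem cells were called at shares near that of all genes tested (23.9%, with 11.1% higher and 12.8% lower). Like all genes tested, they had more lower than higher calls in Quaking KO embryoid bodies, but not with every scaling. Of 6126 genes at 10 to 100 CPM at day 0, 541 (8.83%) were higher and 816 (13.3%) lower, or 22.2% called. With RLE scaling 693 were higher and 671 lower. Of 1683 genes over 100 CPM, 170 (10.1%) were higher and 267 (15.9%) lower, or 26% called, and with RLE scaling 239 and 223. Leaving out WT replicate 2 lowered the number higher in this class to 108. Between 1 and 10 CPM, 441 of 4412 (10%) were higher and 508 (11.5%) lower, or 21.5% called. With RLE scaling these were 495 and 461, and without WT replicate 2 284 were higher. The medians of the 3 classes, at -0.06, -0.03 and -0.05 with TMM, were 0.02, 0.04 and 0.02 with RLE scaling, so no direction is given for them.

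**Figure D4:**
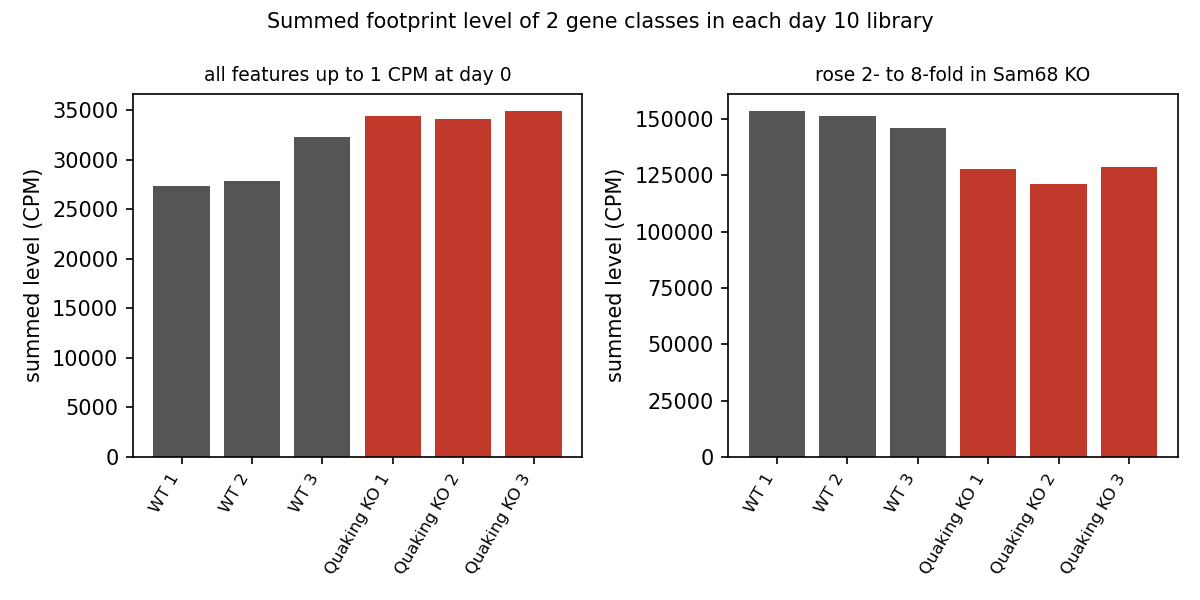
Summed level in CPM, one bar per day 10 library, of all features with up to 1 CPM at day 0 (left) and of genes that rose 2- to 8-fold in Sam68 KO cells (right). On the left the Quaking KO libraries lie above all WT libraries, and on the right below them. As a share of the counts of tested genes, the order on the right does not hold for WT replicate 3.

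Cell-cycle genes were called about as often as other genes. The lists are the marker pairs distributed with scran, reduced to genes that lead pairs of 1 phase only. Of 11 G1 markers tested, 3 were called, all lower (27.3%, beside the 23.9% of all genes), with a median log2 fold change of -0.27. At an unadjusted p below 0.05 (edgeR) 1 were higher and 4 lower, and DESeq2 called 1 higher and 3 lower. Without Quaking KO replicate 3 only 1 G1 marker was lower, and with only the 6 libraries in the fit none was. Of 35 S markers tested, of 37 listed in the files, 4 were higher and 3 lower, with a median of 0.00365. The number of S markers called higher was 1 without Quaking KO replicate 3 and 2 without WT replicate 2. Summed over the 35 tested, their level was 1625, 1582 and 1473 CPM in WT replicates 1, 2 and 3 and 1302, 1341 and 1347 CPM in Quaking KO replicates 1, 2 and 3. In this sum the Quaking KO libraries were below all WT libraries, also with RLE and upper quartile scaling. As a share of the counts of tested genes, WT replicate 3 was lowest (0.053%). The median member went the other way, by deviation from the WT mean of log2(CPM + 1). It stood at 0.123, 0.048 and -0.204 in WT and 0.153, 0.128 and 0.130 in Quaking KO replicates 1, 2 and 3. No direction is therefore given for the S markers. The sums of the G1 and of the G2/M markers overlapped between the groups. Of 29 G2/M markers tested, of 30 listed, 4 were higher and 3 lower, with a median of 0.03. The number higher was 2 without Quaking KO replicate 1 and 1 without WT replicate 2.

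The stem cells of the same lines, compared within pool MIX_1, differed in few genes. At day 0 50 of the 13701 genes were called (0.365%), all as lower in Quaking KO (edgeR), and at an unadjusted p below 0.05 there were 111 higher and 826 lower. DESeq2 called 11 higher and 48 lower. These libraries are not shared with the day 10 comparison. Of the 50, 26 were also lower at day 10, 8 were higher and 16 were not called, so 52.0% of the day 0 list and 1.48% of the day 10 list of lower genes were lower on both days. Over all genes tested, 12.8% were lower and 11.1% higher at day 10. The median log2 fold change of the 50 was -1.39 at day 0 and -0.66 at day 10. Conversely, genes called at day 10 had a median absolute log2 fold change of 1.27 there and 0.24 at day 0, and 185 of the 3279 had a difference of at least 2-fold in the same direction at day 0. Each list was chosen by its values on 1 day, which favours larger values on that day. These medians are therefore a description only, and no value over all genes tested stands beside the 0.24 or the 185. The difference between the days was tested as an interaction: 701 genes had a more positive and 515 a more negative difference of Quaking KO from WT at day 10 than at day 0, or 8.88% of those tested (edgeR, adjusted p below 0.05). The lines shared a pool at day 0 but not at day 10, so pool and genotype cannot be told apart in this test either.

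Comparisons with Sam68 KO embryoid bodies place these numbers. Sam68 KO and WT at day 10, also in different pools, differed in 24 genes (0.175%), and Quaking KO and Sam68 KO at day 10, both in MIX_3, differed in 3242 (23.7%). These comparisons share the WT or the Quaking KO libraries with the one described here, and 2 of the 3 Sam68 KO libraries are dominated by few features, as WT replicate 3 is.

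Features are named by a rule: called, at least 10 CPM in the higher group, no overlap between the groups' libraries, and the largest fold changes. The criteria were met by 1171 higher and 1277 lower genes, of which 2 per direction are given, without knowing what they encode.

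ENSMUSG00000097603.3 had the largest rise. It measured 0.450, 5.10 and 9.40 CPM in WT replicates 1, 2 and 3 and 2065, 615 and 267 CPM in Quaking KO replicates 1, 2 and 3. All Quaking KO libraries were far above all WT libraries, but differed several-fold among themselves (log2 fold change 8.39, SE 1.10, edgeR adjusted p = 0.000112). The feature was already present in Quaking KO stem cells at 33.4, 27.6 and 11.5 CPM, against 1.74, 1.68 and 0.311 CPM in WT stem cells, and this day 0 difference did not pass the test (log2 fold change 4.41, edgeR adjusted p = 0.127). Sam68 KO embryoid bodies held 79.4, 76.0 and 111 CPM, between the other lines. Within pool MIX_3, Quaking KO exceeded Sam68 KO by 3.48 (log2, edgeR adjusted p = 0.00574).

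ENSMUSG00000085151.7 measured 3.45, 0.222 and 2.35 CPM in WT and 206, 18.8 and 19.9 CPM in Quaking KO replicates 1, 2 and 3. The groups did not overlap, and Quaking KO replicate 1 was above the other two (log2 fold change 5.19, SE 1.12, edgeR adjusted p = 0.00460). Without that library the log2 fold change was 3.27. At day 0 the lines were alike in range, with 1.19, 1.72 and 2.18 CPM in Quaking KO and 0.436, 1.68 and 0.854 CPM in WT. Sam68 KO embryoid bodies held 13.6, 4.30 and 9.26 CPM, above all WT libraries, but were not called against WT (log2 fold change 2.24, edgeR adjusted p = 0.816). Within pool MIX_3, Quaking KO exceeded Sam68 KO by 2.95 (log2, edgeR adjusted p = 0.0322).

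ENSMUSG00000002012.13 had the largest fall by the rule, with 1 library, WT replicate 3, setting its size. It measured 176, 119 and 19862 CPM in WT replicates 1, 2 and 3 and 9.28, 41.8 and 5.61 CPM in Quaking KO replicates 1, 2 and 3 (log2 fold change -8.39, SE 2.25, edgeR adjusted p = 0.0168). Without WT replicate 3 the log2 fold change was -2.86 and did not pass (edgeR adjusted p = 0.142). It also missed the threshold without Quaking KO replicate 1 (edgeR adjusted p = 0.0581) or replicate 3 (0.0676), and passed at a log2 fold change of -2.83 without WT replicate 3 and both dominated Sam68 KO libraries (0.0175). The feature was likewise high in the dominated Sam68 KO replicates 2 and 3, at 1167 and 5202 CPM, and at 57.6 CPM in Sam68 KO replicate 1.

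ENSMUSG00000065770.1 was nearly lost from Quaking KO embryoid bodies. WT replicates 1, 2 and 3 held 11.4, 29.9 and 11.7 CPM, from 76, 135 and 5 counts, and Quaking KO replicates held no count, 3 counts and no count. The summed counts gave a ratio of WT over Quaking KO of 52.8, with a 95% exact binomial interval of 17.8 to 258 that covers counting error only (edgeR adjusted p = 0.000133). In stem cells the lines overlapped, with 58.1, 79.3 and 51.1 CPM in WT and 40.0, 51.1 and 95.5 CPM in Quaking KO. The difference between the lines at day 10 was unlike that at day 0 (interaction -5.67, SE 0.96, edgeR adjusted p = 0.00146), though the lines also differ in pool at day 10 only. Sam68 KO embryoid bodies held 8.05, 7.17 and 16.7 CPM, and Quaking KO lay below them by a log2 fold change of -4.65 within pool MIX_3 (edgeR adjusted p = 0.00179).

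**Figure D5:**
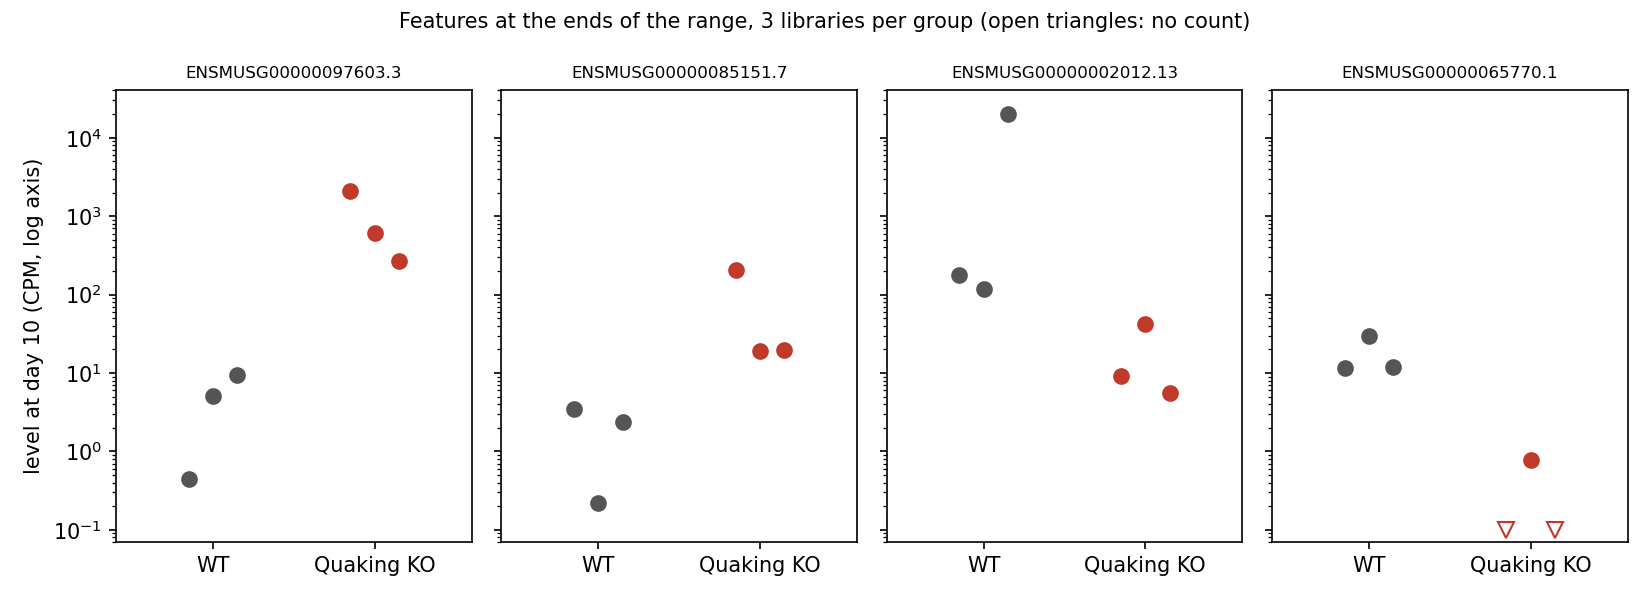
Level in CPM (log axis) of the 4 features in each of the 3 WT and 3 Quaking KO libraries at day 10, with open triangles for libraries without a count, drawn at the foot of the axis. The groups do not overlap in any of the 4, and the single high WT point of ENSMUSG00000002012.13 is replicate 3.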

How the data were processed

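Cycloheximide stopped the ribosomes, RNase I removed unprotected RNA and a gel cut selected fragments of 28 to 32 nt, per the labels' protocols. The authors deposited 1 file of raw counts per library, whole numbers for 51826 versioned Ensembl IDs. The submitters' processing notes name bcl2fastq 2.17.1.14, Bowtie2 and STAR 2.5.3a with mm10 and GRCm38. How reads were counted, on which annotation and strand, is not given in the sources used here, so overlapping, antisense and near-identical genes are uncertain, and features need not be protein-coding.

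All 18 libraries, 6 groups of 3, entered 1 edgeR 4.0.16 quasi-likelihood fit (R 4.3.3, robust, TMM scaling, 1 mean per group). edgeR's default filter kept 13701 of 33167 features with a count, holding at least 99.4% of each library's counts. Calls are at a Benjamini-Hochberg adjusted p of 0.05, and CPM use TMM library sizes. Replicates differed beyond counting noise (10.6 or more in chi-square over its degrees of freedom), so none was counted as a duplicate. P-values measure the spread between libraries within groups, pooled over all 18 and not only the 6 compared. The labels do not give the number of clones, so a spread between knockout clones may not be covered.

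The members, lists and tests were chosen with earlier results of these data known. The 36 gene lists written by symbol, and a protein-coding-only fit, could not be used. The Ensembl column of the reference table (49997 genes) is empty, so 0 IDs could be matched. The rule for named features was to drop mitochondrial, small RNA, pseudogene and predicted models and take 12 per direction; without names nothing could be dropped, and 2 are given. The classes by ID, and cell-cycle pairs from scran 1.30.0, were chosen after the data were seen. Alternatives were DESeq2 1.42.0, other scalings (RLE, upper quartile), no filter, the 6 libraries alone, a replicate block, thinning, and leaving out libraries.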

Additional observations from a re-analysis of the deposited data

Results flagged for a closer look

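For ENSMUSG00000065770.1 the Quaking KO effect at day 10 differed from that at day 0 by -5.67 (log2, SE 0.96, edgeR adjusted p = 0.00146 over all genes tested). The WT and Quaking KO libraries overlapped at day 0, and all 3 Quaking KO libraries were below all 3 WT libraries at day 10. The lines shared a pool at day 0 but not at day 10, so pool and genotype cannot be told apart in this interaction. With no count in a pair of Quaking KO libraries, the size of this fitted value depends on the prior count. The interaction of the other named features did not pass (edgeR adjusted p = 0.159 for ENSMUSG00000097603.3, 0.176 for ENSMUSG00000085151.7 and 0.148 for ENSMUSG00000002012.13).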

How the results depend on the processing

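With only the 6 libraries in the fit, 965 genes were higher and 922 lower, 694 of the latter by at least 2-fold, and 98.7% of these calls were among those of the fit of all 18. Conversely, 56.8% of the calls of the fit of all 18 were kept in the same direction. Thinning every library to 988210 counts gave 1119 lower genes and interaction counts of 266 and 318 with 10705 genes tested. Leaving out 1 library at a time gave 1032 to 1534 higher and 1361 to 1918 lower genes, and 514 to 735 and 408 to 583 interactions. The same-numbered libraries of the groups did not deviate together (r = -0.067, -0.003 and -0.115 across genes for numbers 1, 2 and 3), and 0 of 6 libraries correlated best with its own number. A replicate block on the 6 libraries gave 740 higher (629 at least 2-fold) and 746 lower (622 at least 2-fold), and on all 18 it gave 1376 and 1593. The replicate block on the 6 libraries left ENSMUSG00000097603.3 (edgeR adjusted p = 0.224) and ENSMUSG00000002012.13 (0.562) short of the threshold, and on all 18 it left ENSMUSG00000002012.13 short (log2 fold change -6.07, edgeR adjusted p = 0.0656). ENSMUSG00000085151.7 (0.155) and ENSMUSG00000002012.13 (0.183) did not pass in the fit of the 6 libraries without a block. The other totals of genes called, higher or lower, were within 1.5 times those reported, under RLE, upper quartile, no filter, DESeq2 and without the 3 dominated libraries. The cause of these changes was not tested.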
